A study of Sus scrofa with 9 samples.

Results

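The genes described here are 10 markers by which Sertoli cells, the somatic cells that line the seminiferous tubules, are recognised: the transcription factors SOX9, GATA4 and WT1, the hormone and ligand genes AMH, DHH and INHBB, the hormone receptor gene FSHR, the intermediate filament genes KRT18 and VIM, and the tight junction gene CLDN11. A spot on the array was taken for a gene when it was not a control or antisense spot and the gene's symbol stood as its name or in brackets in its description. By this rule 9 of the 10 genes had a spot, with 16 spots in all among 60889 spots that were not controls. SOX9 and WT1 had 2 spots each, AMH had 3, CLDN11 had 4, and the other 5 genes had 1 each. No spot was found for DHH by this rule, and it was not analysed here.

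Testis biopsies of pigs were compared on a single-colour (cyanine 3) Agilent 60-base oligonucleotide array, with 3 arrays in each of 3 groups. The t(1;14) group came from a Landrace × Duroc boar, oligo-astheno-teratospermic and heterozygous for a balanced reciprocal translocation between chromosomes 1 and 14. The oligospermic group carried a normal karyotype (38,XY), as did the controls, which had normal semen parameters. The study compared testis expression between the carrier and fertile boars. Its 3 t(1;14) arrays were separate samples of 1 animal. The study names 3 fertile control boars and speaks of them as a pool. Which boar or boars each control or oligospermic array held is not given in the sources used here, nor are the ages. Every p-value below therefore measures the spread between arrays, and what belongs to the translocation cannot be told apart from what belongs to the animal.

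Sertoli cells nourish germ cells through meiosis and spermiogenesis and form the barrier that closes the inner part of the tubule. SOX9, GATA4 and WT1 set up and keep their identity, follicle-stimulating hormone acts on them through FSHR, and they return inhibin B, whose beta B chain is encoded by INHBB. AMH and KRT18 are known as genes of the immature Sertoli cell that decline around puberty, and VIM, the main intermediate filament of the adult Sertoli cell, is also made by Leydig, peritubular, endothelial and other mesenchymal cells. Since whole biopsies were measured, fewer cells of a type and less RNA per cell cannot be told apart.

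WT1 and AMH were each read by spots from different stretches of 1 transcript, and CLDN11 by spots that the files assign to 3 transcript records, 2 of them with the same sequence. A probe sequence of each is shown to give what hybridised, each 60 bases long and written 5′ to 3′ as in the array files, with the base of its transcript at which it begins. The WT1 probe (start 1373) lies in the stretch that encodes zinc fingers, the CLDN11 probe (start 108) in the stretch for an extracellular loop, and the AMH probe (start 1549) in the stretch for the mature hormone.
WT1: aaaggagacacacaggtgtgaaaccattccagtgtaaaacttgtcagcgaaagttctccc
CLDN11: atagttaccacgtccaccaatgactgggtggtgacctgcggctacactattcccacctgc
AMH: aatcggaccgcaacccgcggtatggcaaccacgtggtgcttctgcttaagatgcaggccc

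Between 37087 and 40632 spots per array were well above background by the scanner software's own test, and 52 to 275 were saturated. Of the 16 spots of the Sertoli genes, 14 were well above background on all 9 arrays, and with 1 spot per gene 8 of the 9 genes were, all but KRT18. Levels below are log2 of the background-subtracted intensity after quantile normalization over the 9 arrays. Each gene was read from its spot of highest mean level, and the level of one gene was not set against that of another, because spots differ in how strongly they bind. Groups were compared with limma, with p-values adjusted by Benjamini-Hochberg over all spots tested. The thresholds were those of the study's methods: an adjusted p no higher than 0.01, at which a gene is said to have risen or fallen, and for a differential gene also a log2 fold change of 2 or more in either direction. The 3 slides each held 1 array of every group.

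In t(1;14) compared with control, VIM and KRT18 rose, WT1 fell, and the other 6 genes tested did not pass the adjusted p. The fitted values of VIM and KRT18 also passed the fold threshold, so 2 of 9 genes were differential, beside 5.61% of all 40643 spots tested. KRT18 entered the test only through the t(1;14) arrays, and without it 1 of 8 genes rose, 1 fell and 1 was differential. The 2 rises and 1 fall stand beside 15.6% of all spots that rose and 15.6% that fell in this comparison. The median log2 fold change was 0.22 over the 9 genes and 0.14 over all spots tested. The groups did not overlap for 4 of the 9 genes, against 62.0% of all spots. In oligospermic compared with control, 0 of 8 genes tested passed either threshold with limma, 2 had an unadjusted p below 0.05 beside 3906 of 39713 spots, and the median log2 fold change was -0.15 over the 8 genes and 0.00095 over all spots. Few spots passed anywhere on the array in that comparison: 0.073% were differential, 0.0478% rose and 0.0277% fell. In t(1;14) compared with oligospermic, again 2 genes rose, 1 fell and 2 were differential of 9 tested, beside 27.1%, 22% and 6.82% of all 40567 spots. Without KRT18, which again entered through the t(1;14) arrays alone, 1 of 8 genes rose, 1 fell and 1 was differential. These comparisons share arrays, so their counts are not independent of each other.

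**Figure D1:**
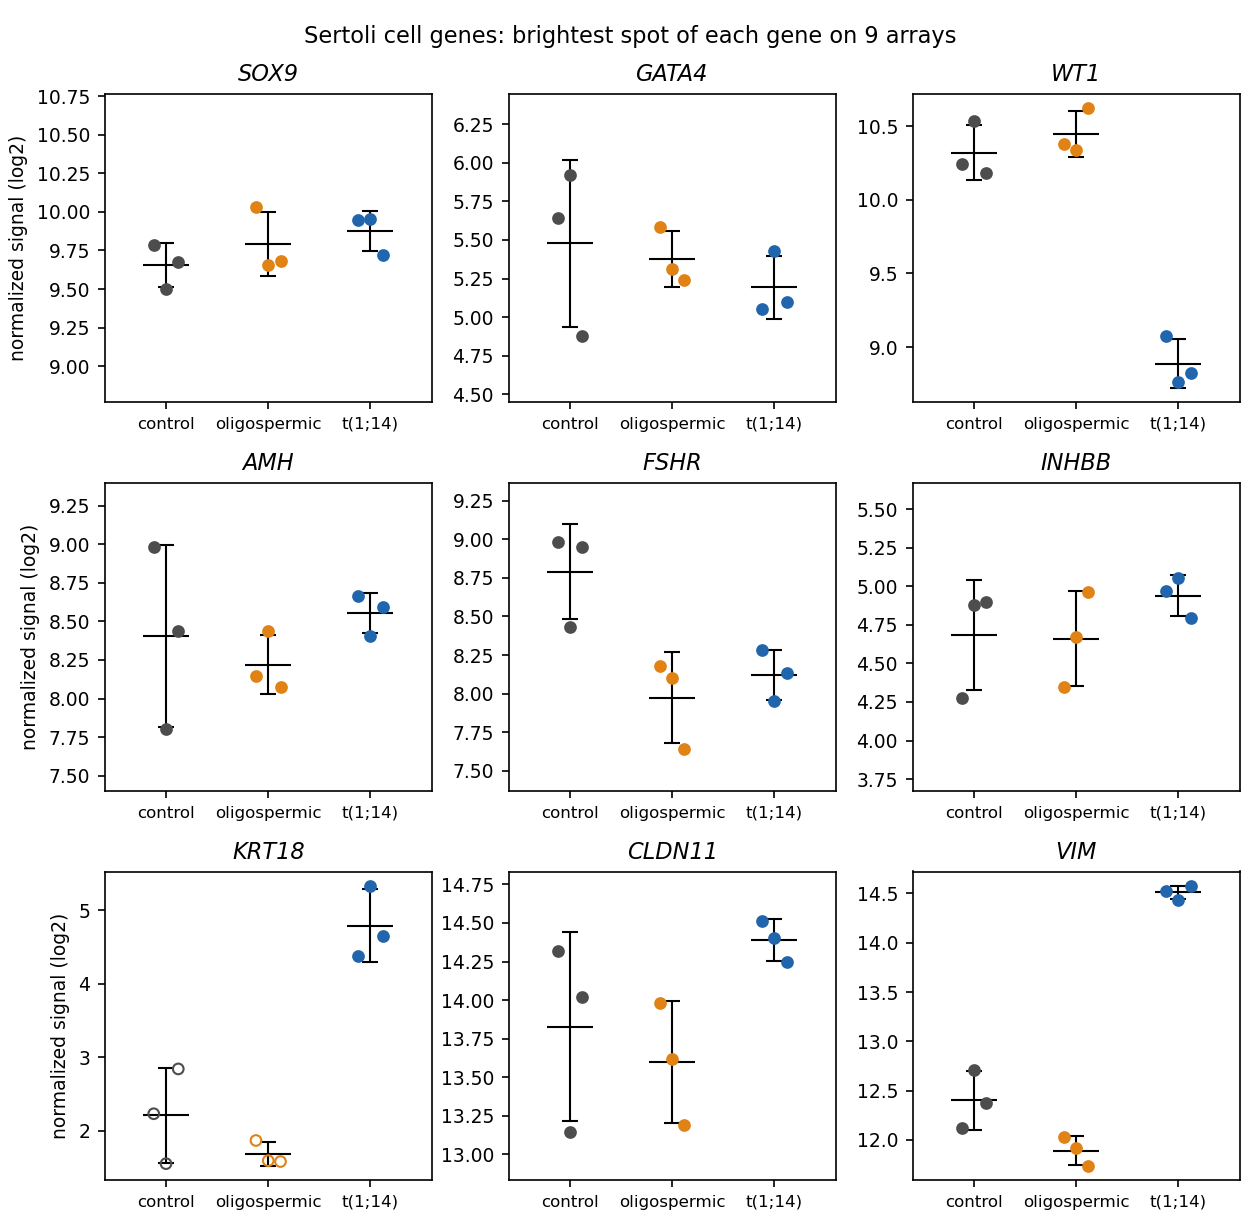
Normalized signal on the log2 scale (vertical axis, each panel with its own range) of the brightest spot of the 9 Sertoli cell genes, with 1 point per array, a horizontal line for the group mean and bars for 1 SD (n = 3). Open points mark groups where the spot was at background on every array. The t(1;14) arrays lie apart from both other groups for WT1, KRT18 and VIM.

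VIM, the intermediate filament gene of most cells of mesenchymal type, showed the clearest rise. Its log2 level was 12.12, 12.71 and 12.37 on the control arrays, 12.03, 11.92 and 11.73 on the oligospermic arrays, and 14.52, 14.44 and 14.57 on the t(1;14) arrays. All 3 t(1;14) arrays were above every other array, and all 3 oligospermic arrays were below every control array. VIM was 4.31-fold higher in t(1;14) than in control (log2 fold change 2.11, SE 0.17, 95% interval 1.70 to 2.52, limma adjusted p = 0.000265). Within the slides this difference was 2.31, 1.86 and 2.15. Against oligospermic it was 6.13-fold higher (log2 fold change 2.62, SE 0.11, adjusted p = 1.87e-05 with limma). The difference between oligospermic and control was -0.51 (95% interval -0.95 to -0.07) and did not pass the adjusted p (0.438). The log2 fold change against control lay close to the threshold of 2: it was 1.94 with arrays scaled to their 75th percentile and 1.97 without control array 1, and the differential call, though not the adjusted p, was lost in both.

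KRT18, which encodes a keratin of simple epithelia, was at background outside the t(1;14) testis. The spot was not well above background on any control or oligospermic array and was well above it on all 3 t(1;14) arrays. Its normalized log2 level was 4.38, 5.33 and 4.65 in t(1;14), between 1.55 and 2.84 in control and between 1.58 and 1.87 in oligospermic, with no overlap. Before normalization the t(1;14) intensities ran from 20.4 to 53.9 and those of the 6 other arrays from 2.58 to 8.23, so the signal was dim also where it was detected. Each control array was then set at a floor, the lowest log2 level that counted as well above background there for any spot (3.20 to 3.99). With this floor KRT18 was 2.32-fold higher in t(1;14) than in control. With oligospermic arrays set likewise it was 2.13-fold higher than in oligospermic. Single spots can be at background above this floor, so these floor values are not strict lower bounds. The limma fit used the measured values, those below background included, and gave adjusted p-values of 0.00254 and 0.000108, which do not test the floor values. The differential call of KRT18 rests on the fitted values, since neither floor value reaches a log2 fold change of 2. The call against control was lost without t(1;14) array 3 (adjusted p = 0.0119 with limma) and with a normexp background correction (log2 fold change 0.40, adjusted p = 0.0103). KRT18 was left out of the comparison of oligospermic with control by the filter on dim spots, and without that filter 0 of 9 genes passed there with limma. Whether the spot also bound other keratin transcripts was not tested.

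WT1, a zinc finger factor needed for the upkeep of Sertoli cells, moved the other way. It stood at 10.25, 10.53 and 10.18 on the control arrays, 10.38, 10.34 and 10.63 on the oligospermic arrays and 9.08, 8.76 and 8.82 on the t(1;14) arrays. The 3 t(1;14) arrays were below all 6 others, which overlapped with each other. WT1 was 2.70-fold lower in t(1;14) than in control (log2 fold change -1.43, SE 0.15, 95% interval -1.80 to -1.07, limma adjusted p = 0.000675) and 2.95-fold lower than in oligospermic (log2 fold change -1.56, SE 0.13, limma adjusted p = 0.000129). On the 3 slides the difference from control was -1.48, -1.71 and -1.10. The zinc finger probe printed above fell by 1.66 on the log2 scale against control (SE 0.14, adjusted p = 0.000331 with limma). A further spot, which the files assign to the same transcript but do not name for WT1, and which was added after its values were seen, gave -1.48 (SE 0.10, limma adjusted p = 0.000183). All 3 WT1 spots thus fell by more than 1 on the log2 scale. None reached the fold threshold. Between oligospermic and control the WT1 difference was 0.13 (95% interval -0.24 to 0.50).

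SOX9, the factor that directs Sertoli cell fate, gave nearly the same level in all groups: 9.66 ± 0.14 in control, 9.79 ± 0.21 in oligospermic and 9.87 ± 0.13 in t(1;14) (log2 mean ± SD, n = 3). The log2 fold change in t(1;14) was 0.22 against control (95% interval -0.10 to 0.54, limma adjusted p = 0.208) and 0.08 against oligospermic (95% interval -0.25 to 0.42). Groups overlapped in both comparisons. The dimmer SOX9 spot gave -0.06 and -0.21 for the same comparisons, so its sign differed from that of the brighter one in each, and neither spot passed.

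GATA4, a zinc finger factor that acts with SOX9 and WT1 on gonadal promoters, was a dim spot with a wide control range. Its log2 level was 5.64, 5.92 and 4.88 in control, 5.58, 5.31 and 5.24 in oligospermic and 5.06, 5.43 and 5.09 in t(1;14), and control array 3 was the lowest of the 9. The log2 fold change of t(1;14) against control was -0.29, with a 95% interval from -0.97 to 0.40 that leaves room for a fall of the size seen for FSHR. It was -0.59 without control array 3 (limma adjusted p = 0.0434) and -0.07 without control array 2. It was -0.18 against oligospermic (limma adjusted p = 0.308). Further spots with the same probe sequence, added after their values were seen, gave -0.12 and -0.19 in t(1;14) against control.

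**Figure D2:**
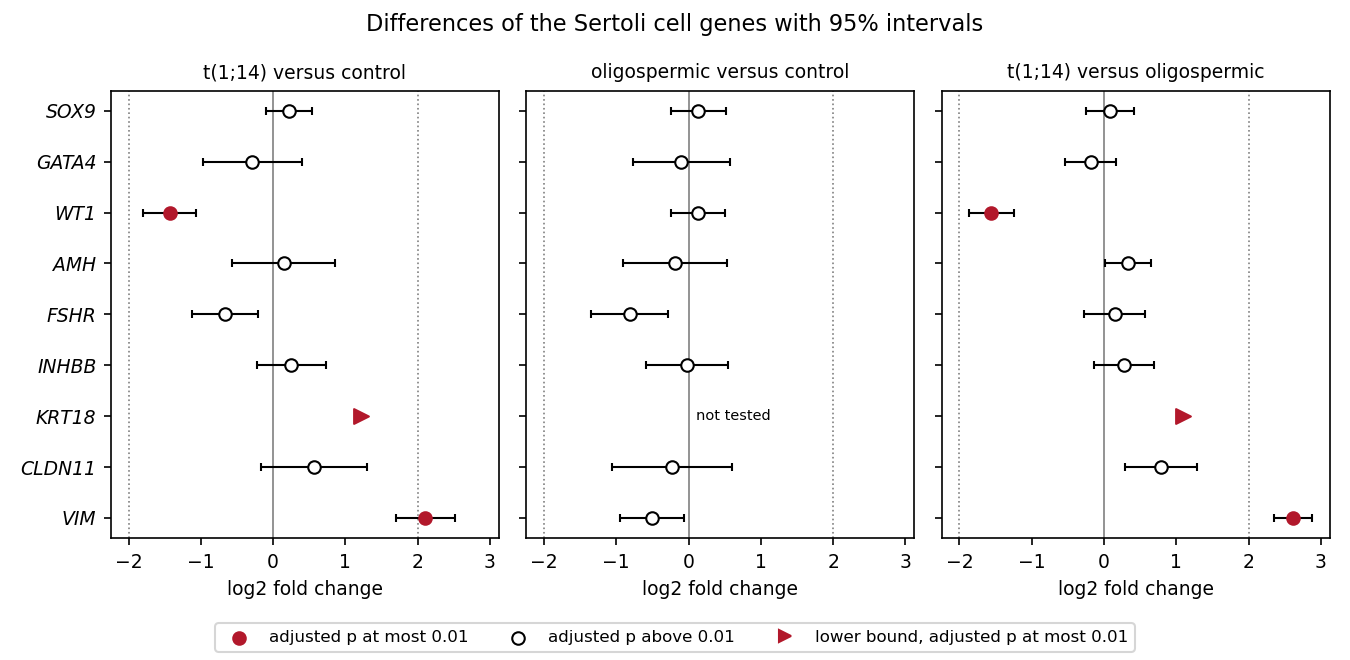
Log2 fold change (horizontal axis) of the 9 Sertoli cell genes in the 3 comparisons, from limma with 3 arrays in each group, bars for the 95% interval and dotted lines at the fold threshold. Triangles, labelled as a lower bound, give KRT18 with the group compared set at the lowest level well above background on each array. KRT18 was not well above background in that group, and the value is not a strict bound. Filled symbols, which passed the adjusted p of 0.01, appear for WT1, KRT18 and VIM and for no gene in oligospermic versus control.

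AMH, the hormone that makes the Müllerian ducts regress in the male fetus, did not pass in any comparison. Its brightest spot read 8.98, 7.80 and 8.44 in control, 8.15, 8.44 and 8.07 in oligospermic and 8.66, 8.41 and 8.59 in t(1;14), and the control arrays alone covered the values of the 6 others. Against control the log2 fold change was 0.15 in t(1;14) (95% interval -0.56 to 0.86, limma adjusted p = 0.700), and without control array 2 it turned to -0.15. Against oligospermic it was 0.34 (95% interval 0.02 to 0.65, limma adjusted p = 0.0632). The spot with the mature hormone sequence printed above was well above background on 2 control arrays, 1 oligospermic array and all 3 t(1;14) arrays. That spot gave 1.00 against oligospermic without overlap (limma adjusted p = 0.0117), with most oligospermic values at background, and 0.30 against control, where the controls varied with an SD of 1.50. The remaining AMH spot gave -0.18 against control and 0.19 against oligospermic.

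INHBB, the inhibin and activin beta B chain, was also dim. Its log2 mean was 4.68 ± 0.36 in control, 4.66 ± 0.31 in oligospermic and 4.94 ± 0.13 in t(1;14) (SD, n = 3), with overlap between all groups. The difference of t(1;14) from control was 0.25 (95% interval -0.23 to 0.74, limma adjusted p = 0.326) and from oligospermic 0.28 (95% interval -0.14 to 0.69). Without control array 1 the former was 0.048, with normexp background correction 0.074, and with 75th percentile scaling 0.39.

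FSHR, through which follicle-stimulating hormone reaches the Sertoli cell, was lower on every oligospermic and t(1;14) array than in the controls, but passed in neither comparison. Its log2 level was 8.99, 8.43 and 8.95 on the control arrays, 8.18, 8.10 and 7.64 on the oligospermic arrays and 8.28, 7.95 and 8.13 on the t(1;14) arrays. Every control array was above the 6 others. The log2 fold change was -0.67 in t(1;14) (SE 0.19, 95% interval -1.12 to -0.21, limma adjusted p = 0.0257) and -0.81 in oligospermic (SE 0.22, 95% interval -1.34 to -0.29, limma adjusted p = 0.283). These values share the control arrays. Without control array 2, the lowest of the controls, the t(1;14) value was -0.85 and passed (limma adjusted p = 0.00693). FSHR differed by 0.15 between t(1;14) and oligospermic (95% interval -0.27 to 0.56). A pair of further spots of the same transcript, added after their values were seen, gave -0.68 and -0.73 in t(1;14) against control (limma adjusted p of 0.0558 and 0.0257). The former shares 57 of its 60 bases with the spot above, and on it control array 2 lay among the oligospermic arrays (7.72 to 8.21).

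CLDN11, the claudin that seals tight junctions between Sertoli cells, had a bright spot that read 14.32, 13.14 and 14.02 in control, 13.98, 13.62 and 13.19 in oligospermic and 14.52, 14.40 and 14.25 in t(1;14). The t(1;14) arrays lay above all oligospermic arrays, and 1 of them lay below control array 1. Against control the log2 fold change was 0.56 (95% interval -0.17 to 1.29, limma adjusted p = 0.167), and it ran from 0.22 without control array 2 to 0.81 without control array 1 (limma adjusted p = 0.0543). Against oligospermic it was 0.79 (SE 0.21, 95% interval 0.29 to 1.29), just outside the threshold with a limma adjusted p of 0.0146, and within the slides 0.42, 0.63 and 1.32. Without oligospermic array 1 it was 0.98 and passed (limma adjusted p = 0.0035). A spot with the identical sequence gave 0.93 against oligospermic and passed (SE 0.20, limma adjusted p = 0.0063). These 2 spots differed from each other by a median of 0.11 and at most 0.36 on the log2 scale over the 9 arrays. The extracellular loop probe printed above gave 0.03 against control and 0.26 against oligospermic (limma adjusted p = 0.224), whereas the spot starting at base 1843 of its transcript gave 0.58 and 0.68 (limma adjusted p of 0.132 and 0.0227). A further spot of the same transcript, added after its values were seen, gave 0.03 and 0.37. The CLDN11 spots therefore ranged from 0.03 to 0.61 against control, and none passed there.

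**Figure D3:**
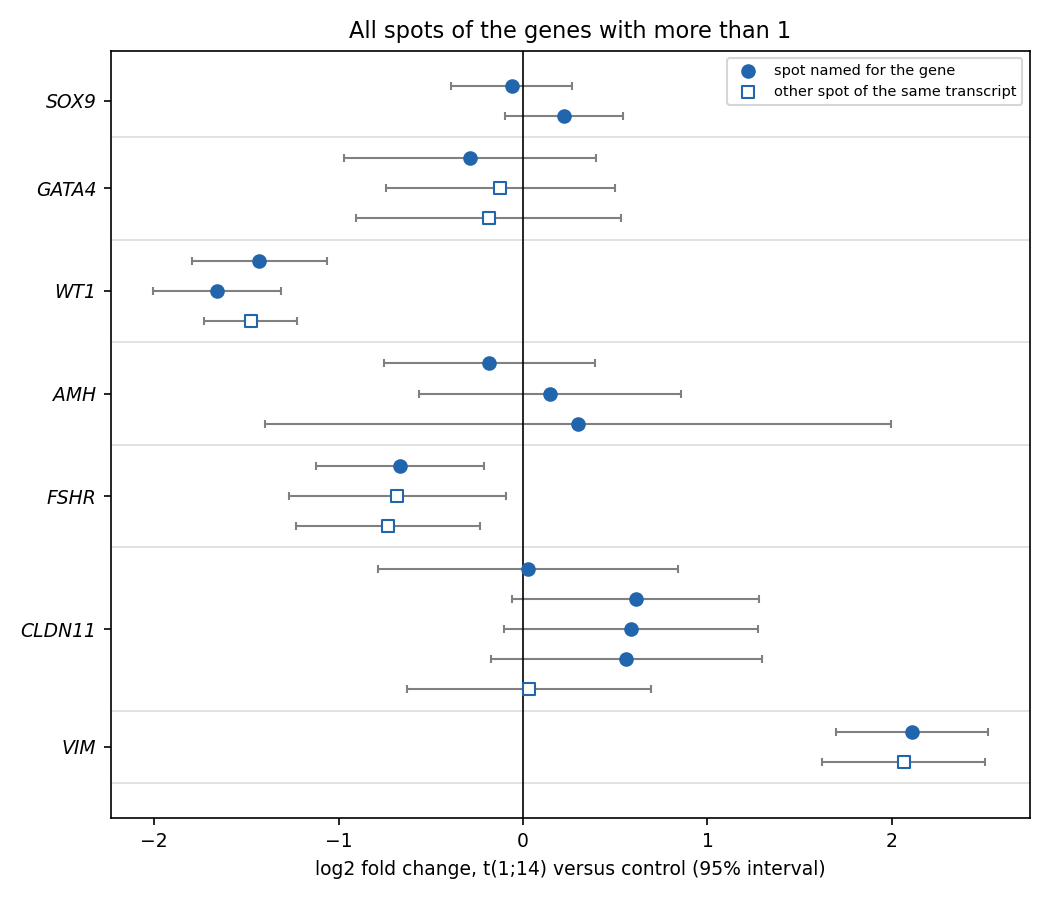
Log2 fold change in t(1;14) versus control (horizontal axis, bars for the 95% interval, 3 arrays in each group) for every spot of the 7 Sertoli cell genes with more than 1, counting spots that the files assign to the same transcript. The 3 WT1 spots lie between -1.66 and -1.43, and the CLDN11 spots between 0.03 and 0.61. For VIM and GATA4 the open squares hold the same probe sequence as the filled point.

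Genes that act with these markers were followed in a list of 16 partners (ligands, receptors, cofactors and the partner keratin), of which 13 had a spot and 12 were tested. In t(1;14) against control 4 rose, 2 fell and 6 did not pass the adjusted p, with 1 differential and a median log2 fold change of 0.29, beside 15.6%, 15.6% and 5.61% of all spots that rose, fell or were differential. INHA, the alpha chain that joins the INHBB product in inhibin B, rose by 1.06 (SE 0.12, limma adjusted p = 0.000755). NR5A1, a nuclear receptor that acts with SOX9, WT1 and GATA4 and is also abundant in Leydig cells, rose by 1.07 (SE 0.12, limma adjusted p = 0.000812). The inhibin co-receptor gene TGFBR3 rose by 1.04 (SE 0.20), while ACVR1B, a type I activin receptor, fell by 0.97 (SE 0.17), with 2 of the 3 t(1;14) arrays well above background. FGF9, a growth factor that sustains SOX9 in the fetal gonad, carried the differential call, which rests on fitted values below background. It was well above background on all control and oligospermic arrays and on no t(1;14) array. With the t(1;14) arrays set at the same kind of floor as for KRT18, FGF9 was 1.91-fold lower than in control and 2.51-fold lower than in oligospermic. Neither floor value is a strict bound or reaches a log2 fold change of 2. The limma fit of the measured FGF9 values gave adjusted p-values of 0.00542 and 8.74e-05, which do not test the floor values. Without FGF9, which entered only through the groups where it was detected, 4 of 11 partners rose and 1 fell against control, 3 rose and 1 fell against oligospermic, and no other tested partner was differential in these comparisons. KRT8, the keratin that pairs with KRT18, did not pass in any comparison: its level was 8.11 ± 0.65 in control, 8.70 ± 0.18 in oligospermic and 8.12 ± 0.21 in t(1;14) (SD, n = 3), and it differed by 0.01 between t(1;14) and control (95% interval -0.78 to 0.81). Against oligospermic the KRT8 value was -0.59 without overlap (95% interval -0.95 to -0.22, limma adjusted p = 0.0138). AMHR2, the AMH receptor, differed by -0.16 between t(1;14) and control (95% interval -0.67 to 0.35). KRT8 and AMHR2 are named as partners of KRT18 and AMH, outside the rule for naming and after their values were seen.

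Against oligospermic, 3 of the 12 partners rose and 2 fell, with FGF9 the 1 differential, beside 27.1% and 22% of all spots that rose and fell. INHA rose by 1.09, NR5A1 by 1.05 and ACVR2A, a type II activin receptor, by 0.53, and ACVR1B fell by 0.97, with the same 2 t(1;14) arrays above background. In oligospermic against control 0 of 12 partners passed with limma, and 1 had an unadjusted p below 0.05.

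A second list held 19 other genes known from Sertoli cells, of which 11 had a spot and 10 were tested. In t(1;14) against control 4 rose, 1 fell, none was differential, and the median log2 fold change was 0.52 beside 0.14 over all spots, of which 15.6% rose and 15.6% fell. CITED1, a transcriptional co-regulator, rose by 1.63 (SE 0.10, limma adjusted p = 0.000148). GJA1, a gap junction connexin, rose by 0.85 (SE 0.17), and the protease gene CTSL rose by 0.83 (SE 0.15). Whole biopsies do not show in which cells these genes, or the partners above, rose. TF, the transferrin that carries iron to germ cells, fell by 1.74 (SE 0.25, limma adjusted p = 0.00206), but its spot was well above background on 1 of the 3 t(1;14) arrays, so it entered the test through the other group and its size rests in part on values at background. Without TF, 4 of 9 genes rose against control and none fell. Against oligospermic 4 rose and 1 fell, beside 27.1% and 22% of all spots; CITED1 rose by 1.76, and TF, with the same limit, had a value of -1.59. In oligospermic against control 0 of 10 passed with limma, and 0 had an unadjusted p below 0.05.

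**Figure D4:**
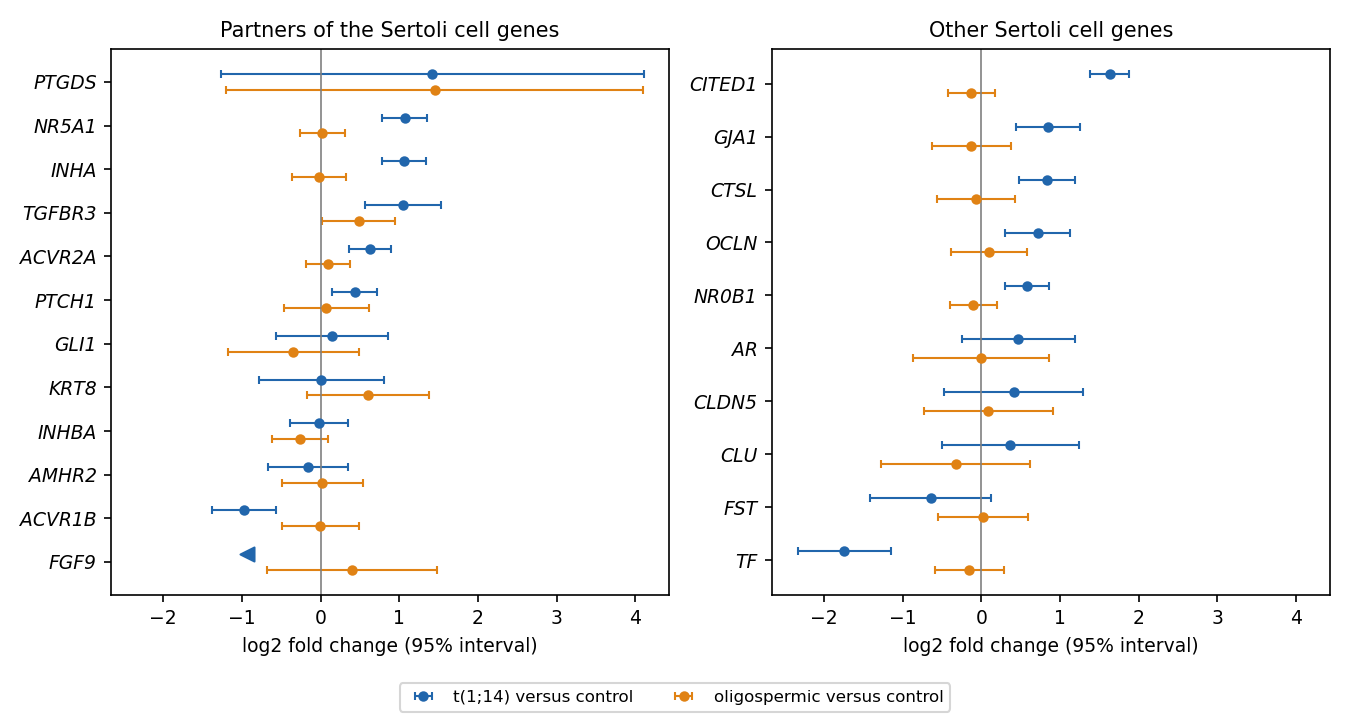
Log2 fold change (horizontal axis, bars for the 95% interval, 3 arrays in each group) of the tested partner genes and other Sertoli cell genes, for t(1;14) versus control and for oligospermic versus control. The triangle gives FGF9 with the t(1;14) arrays set at the lowest level well above background on each, since its spot was at background there. It is not a strict bound. The t(1;14) values lie on both sides of 0, and the widest interval is that of PTGDS.

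Markers of other testis cell types moved in the same comparison in which VIM, KRT18 and WT1 did. All 6 Leydig cell markers were tested, and 5 rose in t(1;14) against control, STAR by 3.72 and LHCGR by 2.73, with a median of 2.48. Over all 40643 spots tested 15.6% rose and 15.6% fell in this comparison. Lists with only 2 tested genes are too short to be set against these shares. The summed level of the Leydig list (log2 of the summed signals) was 15.89 to 15.96 on the control arrays, 15.55 to 15.97 on the oligospermic arrays and from 16.90 upward on the t(1;14) arrays, with INSL3 saturated on 1 oligospermic and 2 t(1;14) arrays. Of 5 spermatid markers tested, ACRV1 fell by 2.40, SPATA18 by 1.92 and TNP2 by 1.09 as measured. The other 2, PRM1 and PRM2, were saturated on all control arrays and on 3 and 1 of the t(1;14) arrays and so could not show a fall of full size. TNP2 was saturated on 1 control and 3 oligospermic arrays, so its measured fall is a lower limit. The summed level of this list was 17.79 to 18.02 in control, 17.86 to 17.96 in oligospermic and 17.18 to 17.21 in t(1;14), and PRM1, PRM2 and TNP2 make up most of it. Of the 4 peritubular and vascular markers tested, PECAM1 rose by 1.41, the other endothelial gene CDH5 had a value of 0.99 without overlap (limma adjusted p = 0.0364) and rose by 0.91 against oligospermic (limma adjusted p = 0.000653), and the muscle markers ACTA2 and DES had values of -0.21 and -0.31. Against oligospermic DES fell by 0.65 (limma adjusted p = 0.00863). The summed level of that list was 13.72 to 14.61 in control, 13.81 to 14.38 in oligospermic and 13.80 to 14.26 in t(1;14). ACTA2 makes up most of this sum, so it hardly reflects PECAM1 and CDH5. CD14 rose by 1.30 among 2 immune markers tested, with a summed level of 6.58 to 7.20 in control, 6.27 to 6.55 in oligospermic and 7.40 to 7.73 in t(1;14). Spermatogonial markers gave 1 rise among 2 tested (summed level 11.60 to 12.14, 11.45 to 11.91 and 12.61 to 12.74 in the order control, oligospermic, t(1;14)), and spermatocyte markers 1 fall among 2 (11.11 to 11.55, 10.15 to 10.56 and 10.78 to 10.87). The summed level of the 9 Sertoli genes was 14.18 to 14.78, 13.94 to 14.51 and 15.49 to 15.59 in that order, and VIM and CLDN11 held the brightest spots in it. The study's histology of the t(1;14) testis described moderate atrophy of the tubules, severe hyperplasia of interstitial cells and more apoptotic cells, identified as spermatocytes. The part of cell composition in the VIM, KRT18 and WT1 differences was not tested.

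**Figure D5:**
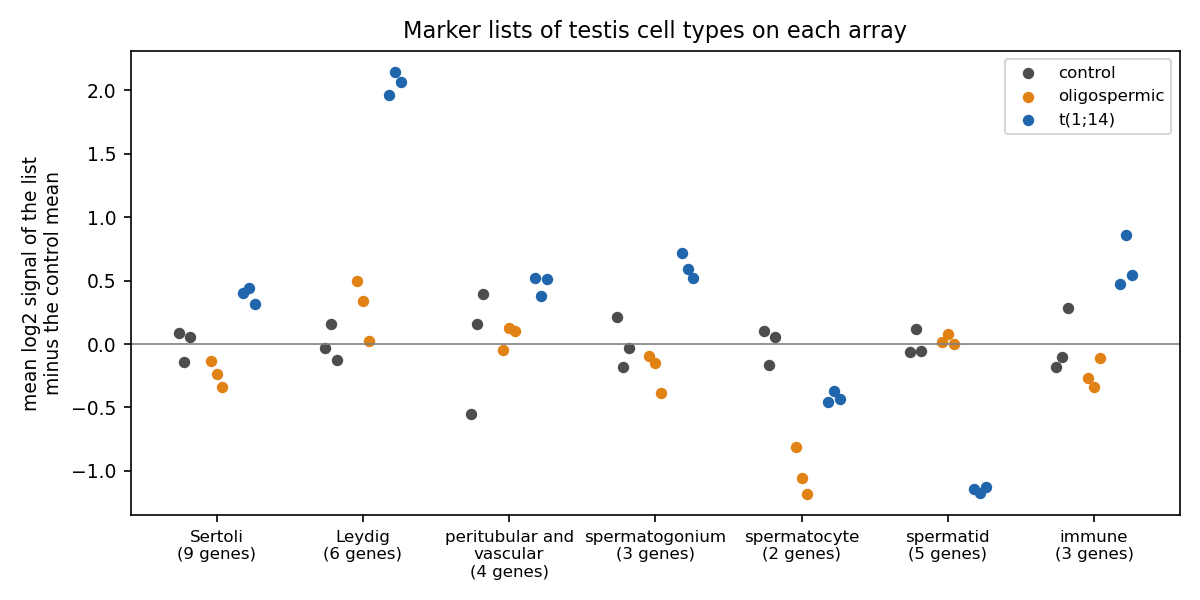
Mean log2 signal of each marker list on each array, minus the mean of the 3 control arrays (vertical axis), with 1 point per array and the number of genes under each list. Genes with a spot count even where they were not well above background or, as for 3 of the 5 spermatid genes, were saturated on some arrays. Leydig markers lie highest and spermatid markers lowest on the t(1;14) arrays, and the Sertoli genes lie between them. Among the Sertoli genes only VIM and KRT18 (at background in control) rose in t(1;14) against control, and WT1 fell. The Sertoli list mean therefore does not stand for each of its genes.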

How the data were processed

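RNA of testis biopsies was hybridised with cyanine 3 by the authors to Agilent arrays, and the deposited scanner files (Feature Extraction 11.5.1.1) hold the intensity of each spot after background subtraction, not yet normalized between arrays. Their deposited log2 values of 38759 spots, by the values quantile normalized over the 9 arrays, held 15 of the 16 spots of these genes and were used as an alternative. Here log2 intensities were quantile normalized (9 arrays together), and the 6 arrays of each comparison were fitted with limma 3.58.1 in R 4.3.3. A spot was tested when, in 1 group or more, it was well above background and carried no outlier flag on 2 or 3 arrays. The scripts were tested on simulated data. The number of arrays limits the precision.

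The genes and lists were chosen with earlier results of these data known. All 10 members are named; of the partner and other Sertoli lists, the differential genes and up to 4 genes per comparison with the largest change that met the adjusted p. Other names are marked as outside this rule. No genome was used, so no coordinates are given. The gene annotation places GATA4 on chromosome 14, which the translocation involves, and whether this bears on its value was not tested.

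Alternatives were scaling to the 75th percentile, quantile normalization over 6 arrays, normexp with an offset of 50, the authors' values, other filters, slide or replicate number as a block, 1 model of 9 arrays, an intensity trend, the median over spots, and leaving out each array. Deviations of same-numbered oligospermic and control arrays, which share a slide, correlated at 0.478, 0.136 and 0.101, so these numbers pair the arrays through the slide. Those of t(1;14) and control arrays gave -0.285, -0.194 and 0.139 by number, so numbers do not pair them, but 0.339, 0.109 and 0.119 by slide. For t(1;14) and oligospermic they gave -0.421, -0.335 and 0.121 by number and 0.489, 0.292 and 0.330 by slide.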

Additional observations from a re-analysis of the deposited data

How the results depend on the processing

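VIM and WT1 met the adjusted p in all 18 alternatives against control and against oligospermic, with log2 fold changes against control of 1.94 to 2.26 for VIM and -1.55 to -1.28 for WT1. The number of differential Sertoli genes in t(1;14) versus control was 1 instead of 2 with 75th percentile scaling, with normexp, with the filter in every group and with the replicate block. VIM was the gene lost with the scaling, and KRT18 with the other 3, where the filter left it untested by construction, normexp gave 0.40 and the replicate block an adjusted p of 0.0159 (limma). Leaving out 1 array at a time gave 1 to 2 differential genes there, and 2 to 4 genes at the adjusted p. In t(1;14) versus oligospermic 1 gene was differential with normexp and with the filter in every group, and leaving out 1 array gave 2 to 2 differential and 3 to 4 at the adjusted p. In oligospermic versus control it gave 0 to 0 for both counts, and the replicate block changed no call there. The slide block changed no call of these genes.

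Values that changed sign were all within their error of 0 or came from another choice of spot. AMH in t(1;14) versus control was -0.49 with the median over its spots, also with those of its transcript added, where the median takes different spots on different arrays, and -0.15 without control 2. Leaving out 1 array gave AMH there a range of -0.15 to 0.43. SOX9 against oligospermic was -0.064 with either median, and FSHR ranged from -0.022 (without oligospermic 3) to 0.25. In oligospermic versus control with 1 array left out, INHBB ranged from -0.23 to 0.13 and was above 0 without oligospermic 1, control 2 (0.073) or control 3 (0.084), AMH was 0.098 without control 1, CLDN11 ranged from -0.57 to 0.016 (without control 1), and GATA4 from -0.40 to 0.12 (without control 2). CLDN11 against oligospermic passed in 4 of 18 alternatives (limma adjusted p from 0.0035 to 0.0972 over all). Scaling moved the median of all spots in t(1;14) versus control from 0.14 to 0.16 with the 75th percentile and 0.07 with normexp. Dim spots (KRT18, INHBB, GATA4) limit what can be read for these genes.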

Other observations

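The spread between arrays was smaller in t(1;14) than in control for the brightest spot of 9 of 9 Sertoli genes, beside 72.4% of 41105 spots, but larger for the second spot of SOX9 and of WT1, and for KRT18 the control values were at background. The 3 t(1;14) arrays come from 1 boar, and which control boar or boars each control array holds is not given, so animals and sampling cannot be told apart here.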
